A study of Mus musculus with 12 samples.

Results

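The genes described are 10 glutathione transferases of mouse kidney, taken as the rows of the deposited expression table with the symbols Gsta1, Gsta2, Gsta3, Gsta4, Gstm1, Gstm3, Gstp1, Gstp2, Gstp3 and Gstt1, out of 25553 genes in all. Glutathione transferases couple the tripeptide glutathione to reactive, electron-poor compounds, such as oxidised lipids and drug metabolites, which the cell then exports and the kidney processes to mercapturic acids. The soluble enzymes are dimers and fall into classes by sequence, of which the alpha, mu, pi and theta classes are covered here. Alpha class enzymes are abundant in the proximal tubule of the kidney and also reduce lipid hydroperoxides, and genes of the alpha, mu and pi classes are known targets of NRF2, a transcription factor that is active under oxidative and electrophilic stress.

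RNA of frozen kidney tissue was sequenced in 12 wild-type (WT) mice, 3 in each of 4 groups. HR kidneys came from mice that had hypoxic preconditioning (HPC) and then renal ischemia-reperfusion injury (RIRI), NR kidneys from normoxic mice with RIRI, HS kidneys from preconditioned mice with a sham operation and NS kidneys from normoxic mice with a sham operation. RIRI was a clamp of both renal pedicles for 45 min through the abdomen and 12 h of reperfusion, and HPC was breathing 8% oxygen at normal pressure on 3 days in a row, for 2 h, then 4 h, then 8 h. Strain, sex and age are not given in the labels, and all 12 libraries carry batch number 1. The values are FPKM (fragments scaled to gene length and library depth). They allow levels to be compared between genes per length, while a comparison between libraries also depends on the scaling: median-ratio factors ran from 1.05 to 1.08 in HR, 0.941 to 1.03 in NR, 0.975 to 1.02 in HS and 0.928 to 0.946 in NS libraries.

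Library depth, recovered from the steps between low FPKM values, was 33107285 to 35713008 reads. The defining markers of kidney segments were present in every library: Slc34a1 of the proximal tubule stood at 594.2 to 2153 FPKM, Umod of the thick ascending limb at 1059 to 1732 FPKM and Aqp2 of the collecting duct at 127.1 to 444.2 FPKM over all libraries. Of 5 adrenal markers in the table, none reached an FPKM of 1 in 3 libraries. The 6 liver markers summed to 305.8 to 503.0 FPKM in HR, 479.0 to 682.4 in NR, 775.6 to 854.5 in HS and 1018 to 1115 FPKM in NS kidneys, most of it Cyp2e1, a cytochrome P450 (242.6 to 961.8 FPKM), while Alb, which encodes albumin, stood at 1.53 to 4.95 FPKM. Their part in the results below was not tested. Differences were tested with limma on log2(FPKM + 1) in 1 fit of all 12 libraries, and a difference was called where its p, adjusted by Benjamini-Hochberg (BH), was under 0.05 over the 12357 genes that had an FPKM of at least 1 in at least 3 libraries. Of the 10 glutathione transferase genes 9 passed this filter, and Gstm3 did not. Gsta1 and Gstp3 passed it only through the RIRI libraries, where they are high. On the log2(FPKM + 1) scale the change of a gene of low FPKM is understated. In RNA of bulk kidney tissue, fewer cells of a type and less RNA per cell cannot be told apart, which holds for every difference below.

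Summed over the 10 genes, HR kidneys held 969.8, 1306 and 1138 FPKM and NR kidneys 1020, 551.3 and 1009 FPKM. HS kidneys held 968.1, 897.4 and 889.6 FPKM and NS kidneys 676.0, 687.7 and 692.2 FPKM. The sums of the NS kidneys lay close together and the 3 HS kidneys were all above them, while the second NR kidney was the lowest of all 12 libraries. Gstm1, Gstp1 and Gsta2 made up most of the sum in every group. The makeup differed by group: Gstp1 was on average 38.0% of the sum in NR kidneys and 19.6% in NS kidneys, Gstt1 was 5.74% in NR and 17.4% in NS kidneys, and Gsta2 was 20.7% in HS and 12.2% in NS kidneys. These sums are descriptions and were not tested.

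**Figure D1:**
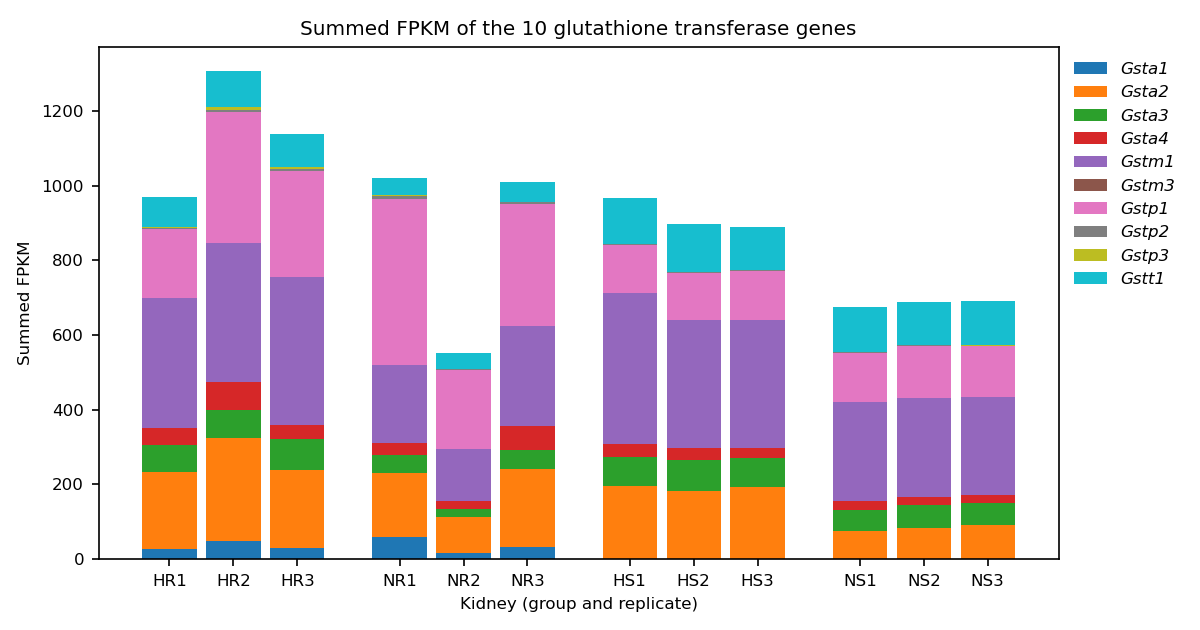
Summed FPKM of the 10 glutathione transferase genes (vertical axis) in each of the 12 kidneys, with 1 bar per library and 1 colour per gene, for HR, NR, HS and NS kidneys, each with 3 libraries. Gstm1, Gstp1 and Gsta2 form most of every bar, and the bar of the second NR kidney, at 551.3 FPKM, is the lowest.

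Of the alpha class, Gsta1 and Gsta2 lie near Gsta4 on chromosome 9, at 78230669-78242683 on the forward strand for Gsta1, 78331018-78347192 on the reverse strand for Gsta2 and 78191966-78209349 for Gsta4, while Gsta3 is on chromosome 1 at 21240565-21265575 (RefSeq, GRCm38.p6, the assembly behind mm10). Gsta1 and Gsta2 are near-copies in sequence whose levels in sham kidneys were far apart, so the 250 bases before each start are shown, from RefSeq and in the direction of the gene. They cover chr9:78230419-78230668 on the forward strand for Gsta1 and chr9:78347146-78347395 on the reverse strand for Gsta2. The windows end at the transcript start of the RefSeq promoter table, which for Gsta2 lies inside the span of the gene given above. Capitals mark the runs of at least 12 bases that a search found in both windows, in the same order.
Gsta1: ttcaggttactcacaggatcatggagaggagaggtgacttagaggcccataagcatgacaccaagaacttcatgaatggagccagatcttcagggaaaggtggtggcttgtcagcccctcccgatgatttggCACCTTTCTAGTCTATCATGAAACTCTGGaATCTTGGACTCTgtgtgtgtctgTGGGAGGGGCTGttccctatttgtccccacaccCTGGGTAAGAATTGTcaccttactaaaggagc
Gsta2: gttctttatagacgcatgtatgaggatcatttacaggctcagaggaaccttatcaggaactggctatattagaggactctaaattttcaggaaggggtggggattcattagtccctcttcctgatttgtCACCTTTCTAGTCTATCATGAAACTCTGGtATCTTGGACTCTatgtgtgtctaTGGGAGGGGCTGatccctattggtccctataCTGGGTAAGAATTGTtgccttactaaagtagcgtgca
Aligned end to end, 71.4% of the alignment columns were identical, with 44 mismatches and 32 gapped columns, and the longest shared run was 29 bases, from -118 to -90 before the Gsta1 start and from -121 to -93 before that of Gsta2. Neither window held the letters TGACNNNGC or TGAGNNNGC (forms of the antioxidant response element bound by NRF2) or TGAGTCA (the AP-1 site) on either strand. Only these 250 bases were searched, so whether such elements lie further out is not known from this search. Of all 32851 windows of this length in the RefSeq table, 10.16% held TGACNNNGC, 14.38% TGAGNNNGC and 4.46% TGAGTCA. The letters of TGAGTCA followed by GC are also a match to TGAGNNNGC, so these shares overlap.

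Gsta1 was nearly silent in sham kidneys and high after RIRI. It stood at 25.8, 49.1 and 29.5 FPKM in HR kidneys and at 59.2, 15.5 and 33.7 FPKM in NR kidneys. It stood at 0.340, 0.307 and 0.281 FPKM in HS kidneys and at 0.0688, 0 and 0.260 FPKM in NS kidneys, where the 3 libraries held 10 reads together. Every RIRI kidney was far above every sham kidney, and the HR and NR kidneys overlapped. Gsta1 rose in NR over NS kidneys by 4.88 ± 0.36 on the log2(FPKM + 1) scale (SE, BH-adjusted p = 2.72e-07 by limma) and in HR over HS kidneys by 4.72 ± 0.36 (adjusted p = 1.77e-06). On that scale the rise from so few reads is understated, and over the alternatives the difference of NR and NS kidneys ran from 4.44 to 8.74, called in all 22. No difference between HR and NR kidneys was called (0.08 ± 0.36, adjusted p = 0.875). Between HS and NS kidneys, with 27 reads against 10, the difference was 0.24 ± 0.36 (adjusted p = 0.816).

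Gsta2 was the only one of the 9 tested genes that was called higher in preconditioned than in normoxic sham kidneys. Its FPKM were 208.8, 273.9 and 208.5 in HR kidneys and 172.3, 97.7 and 207.6 in NR kidneys. They were 195.6, 181.6 and 192.1 in HS kidneys and 75.9, 84.5 and 90.0 in NS kidneys. The 3 HS kidneys were all above the 3 NS kidneys, with a mean of 189.8 ± 7.31 FPKM against 83.5 ± 7.12 FPKM (SD, n = 3 each), a ratio of 2.27. The log2 difference of HS and NS kidneys was 1.18 ± 0.22 (adjusted p = 0.0474 by limma), and 9 of 22 alternative settings kept the call, with adjusted p from 0.00112 to 0.171. The size of the difference hardly moved, but the call was lost on leaving out any 1 of the 6 sham kidneys, the first NR kidney, the first HR kidney or the third HR kidney. Gsta2 also rose in NR over NS kidneys, by 0.86 ± 0.22 (adjusted p = 0.00355), and in HR over NR kidneys, by 0.59 ± 0.22 (adjusted p = 0.0465), the second of which 7 of 22 alternatives kept. Without the second NR kidney the difference of HR and NR kidneys was 0.27 (adjusted p = 0.124). Between HR and HS kidneys the log2 difference was 0.27 ± 0.22 (adjusted p = 0.318), although the 2 groups did not overlap. The interaction, which is HR minus HS less NR minus NS, was -0.59 ± 0.31 (adjusted p = 0.177), and without the second NR kidney it was -0.91 and called (adjusted p = 0.00539).

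Gsta3, an alpha enzyme that in mice is known for conjugating the epoxide of aflatoxin, followed another order. It stood at 71.4, 75.7 and 82.4 FPKM in HR kidneys and at 46.4, 22.3 and 50.7 FPKM in NR kidneys. It stood at 77.6, 82.5 and 77.8 FPKM in HS kidneys and at 56.6, 60.1 and 59.5 FPKM in NS kidneys. The HR and HS kidneys overlapped, and the NR kidneys were below all others. Gsta3 rose in HR over NR kidneys by 1.01 ± 0.22 on the log2 scale (adjusted p = 0.00425 by limma), and fell by 0.63 ± 0.22 in NR against NS kidneys (adjusted p = 0.0234), a call that 19 of 23 alternatives kept and that was lost without the second NS kidney (adjusted p = 0.0577) or the third (adjusted p = 0.0547). The size of both rested on the second NR kidney, without which the differences were 0.64 for HR over NR and -0.27 for NR against NS kidneys, each still called. The HS kidneys did not overlap the NS kidneys, but the log2 difference of 0.43 ± 0.22 was not called (adjusted p = 0.428), and it was called where only these 2 groups were fitted (adjusted p = 0.0131) and without the second NR kidney (adjusted p = 0.0221). Between HR and HS kidneys the difference was -0.05 ± 0.22 (adjusted p = 0.858).

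Gsta4, known for conjugating the lipid aldehyde hydroxynonenal, stood at 46.4, 75.1 and 39.6 FPKM in HR kidneys and at 32.2, 19.4 and 65.0 FPKM in NR kidneys. It stood at 33.8, 31.9 and 26.3 FPKM in HS kidneys and at 22.5, 22.5 and 23.1 FPKM in NS kidneys. The NR kidneys spanned the range of nearly all other kidneys, and no comparison was called. The log2 differences were 0.58 ± 0.34 for NR over NS kidneys (adjusted p = 0.139 by limma), 0.57 ± 0.34 for HR over NR (adjusted p = 0.195), 0.41 ± 0.34 for HS over NS (adjusted p = 0.634) and 0.74 ± 0.34 for HR over HS (adjusted p = 0.0847). Single NR libraries decided 2 of these. The difference of NR and NS kidneys was 0.98 and called without the second NR kidney (adjusted p = 0.0101), and 0.14 and not called without the third. That of HR and NR kidneys was 0.17 and not called without the second, and 1.02 and called without the third (adjusted p = 0.0105). The difference of HR and HS kidneys was called without either of these (adjusted p = 0.0296 and 0.017).

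The mu class was represented by Gstm1 and Gstm3, both on the reverse strand of chromosome 3 at 108012250-108017973 and 107963696-107969174. Gstm1 had the highest mean of the 10 genes in HR, HS and NS kidneys. It stood at 345.8, 371.8 and 396.1 FPKM in HR kidneys and at 210.8, 140.4 and 267.2 FPKM in NR kidneys. It stood at 404.1, 343.5 and 343.3 FPKM in HS kidneys and at 266.6, 265.5 and 261.6 FPKM in NS kidneys. Every preconditioned kidney was above every normoxic kidney, and the NR kidneys overlapped the NS kidneys. Gstm1 rose in HR over NR kidneys by 0.89 ± 0.18 on the log2 scale (adjusted p = 0.0021 by limma). In HS over NS kidneys the difference was 0.45 ± 0.18 with no overlap (adjusted p = 0.279), and it was called where only these groups were fitted (adjusted p = 0.0302). In NR against NS kidneys it was -0.41 ± 0.18 (adjusted p = 0.0542), and it was -0.16 and not called without the second NR kidney, and -0.62 and called without the third (adjusted p = 0.00298). That difference was also called with median-ratio scaling (-0.49, adjusted p = 0.0124) and with limma voom on recovered reads (-0.41, adjusted p = 0.0466). In all, 3 of 23 alternatives called it.
Gstm3 was at the edge of detection, with 1 to 9 reads in a library and 0.0251 to 0.214 FPKM, and was not tested.

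The pi class genes Gstp1, Gstp2 and Gstp3 lie near each other on the reverse strand of chromosome 19, at 4035411-4037912, 4040288-4042221 and 4057470-4059605. Gstp1 is the main pi enzyme of mouse tissues and is also known to bind and restrain the kinase JNK. The 3 genes differed in their values after RIRI, and their upstream windows show how alike the first 2 are and how different the third is. The windows are the 250 bases before each start from RefSeq, on the reverse strand, at chr19:4037913-4038162 for Gstp1, chr19:4042222-4042471 for Gstp2 and chr19:4059448-4059697 for Gstp3. The start used for Gstp3 lies inside the span of the gene given above. Capitals mark matches on either strand to TGACNNNGC, TGAGNNNGC or TGAGTCA.
Gstp1: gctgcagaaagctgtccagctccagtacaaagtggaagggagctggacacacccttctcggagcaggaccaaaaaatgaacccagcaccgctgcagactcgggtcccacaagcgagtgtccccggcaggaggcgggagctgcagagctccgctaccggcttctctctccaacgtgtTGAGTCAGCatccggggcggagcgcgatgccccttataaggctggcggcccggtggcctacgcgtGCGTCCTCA
Gstp2: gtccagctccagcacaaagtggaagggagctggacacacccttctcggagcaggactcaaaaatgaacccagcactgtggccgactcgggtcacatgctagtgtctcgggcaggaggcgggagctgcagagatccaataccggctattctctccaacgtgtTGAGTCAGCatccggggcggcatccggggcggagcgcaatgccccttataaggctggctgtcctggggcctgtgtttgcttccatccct
Gstp3: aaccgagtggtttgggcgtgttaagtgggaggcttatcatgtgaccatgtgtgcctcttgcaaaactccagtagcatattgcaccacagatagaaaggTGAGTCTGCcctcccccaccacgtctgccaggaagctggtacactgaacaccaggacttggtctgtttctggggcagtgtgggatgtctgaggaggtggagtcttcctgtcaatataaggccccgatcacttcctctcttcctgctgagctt
Gstp1 and Gstp2 share the same 9 letters, TGAGTCAGC, from -74 to -66 and from -89 to -81 before their starts, which match both TGAGNNNGC and, in their first bases, TGAGTCA. Gstp1 has a further match on the opposite strand, GCGTCCTCA from -9 to -1. Gstp3 has TGAGTCTGC from -152 to -144, which matches TGAGNNNGC and not TGAGTCA. Identity over the aligned windows was 78.5% for Gstp1 and Gstp2, 50.7% for Gstp1 and Gstp3 and 51.9% for Gstp2 and Gstp3. The letters ACGTG, the core of the hypoxia response element, were in all 3 windows on one strand or the other and in 16.57% of all windows. Such matches were not confined to the pi class. Gsta3 had TGACATTGC from -121 to -113, and Gstt1 had TGAGAGAGC from -89 to -81. The start used for Gsta3 lies inside the span of that gene. The whole Gstt1 window, chr10:75797732-75797981, lies inside the span of Gstt1 given below, so its match does too. Of the genes with such matches, Gsta3 and Gstt1 were called lower and Gstp1, Gstp2 and Gstp3 higher in NR than in NS kidneys. The part of the letters in these values was not tested. A match of letters is a description and not a bound site.

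Gstp1 rose after RIRI whether or not the mice were preconditioned. It stood at 185.9, 351.7 and 282.9 FPKM in HR kidneys and at 442.7, 210.5 and 326.4 FPKM in NR kidneys. It stood at 130.3, 126.5 and 131.6 FPKM in HS kidneys and at 129.9, 137.9 and 135.3 FPKM in NS kidneys. All 6 RIRI kidneys were above all 6 sham kidneys, and within each pair of HR with NR and HS with NS kidneys the values overlapped. The log2 differences were 1.21 ± 0.25 for NR over NS kidneys (adjusted p = 0.000836 by limma) and 1.02 ± 0.25 for HR over HS kidneys (adjusted p = 0.00437). Those for HR against NR, -0.24 ± 0.25 (adjusted p = 0.462), and for HS against NS, -0.05 ± 0.25 (adjusted p = 0.953), were not called.

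Gstp2 was also called higher in both RIRI groups, with far fewer reads. It stood at 1.97, 5.64 and 5.17 FPKM in HR kidneys and at 7.51, 2.42 and 4.79 FPKM in NR kidneys, and between 1.60 and 2.05 FPKM in the 6 sham kidneys. The RIRI kidneys of each group were above the sham kidneys of their own comparison, but the first HR kidney was below the highest NS kidney. Gstp2 rose in NR over NS kidneys by 0.94 ± 0.32 on the log2 scale (adjusted p = 0.0188 by limma) and in HR over HS kidneys by 0.87 ± 0.32 (adjusted p = 0.0383), of which 20 of 22 and 13 of 22 alternatives kept the call. The first was 0.63 without the first NR kidney (adjusted p = 0.0856), and the second was lost without the second HR kidney, the third HR kidney, any HS kidney or the second NS kidney (adjusted p from 0.0506 to 0.132). Per 100 reads of Gstp1 there were 1.07 to 1.85 reads of Gstp2 in HR, 1.16 to 1.71 in NR, 1.28 to 1.39 in HS and 1.30 to 1.53 in NS kidneys, ranges that overlap between all 4 groups. In the mouse transcripts of GENCODE M21, 42.2% of the 100-base stretches of Gstp2 and 38.4% of those of Gstp1 also occur in another gene, and how the authors assigned such reads is not stated. The level of Gstp2 is therefore uncertain, and a part of its reads may belong to Gstp1 or the pseudogene Gstp-ps.

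Gstp3 rose after RIRI and rose further with preconditioning. It stood at 4.57, 6.63 and 6.37 FPKM in HR kidneys and at 2.64, 1.69 and 1.68 FPKM in NR kidneys. It stood at 0.0763, 0.102 and 0.184 FPKM in HS kidneys and at 0.309, 0.0494 and 0.243 FPKM in NS kidneys, which are 14 and 24 reads over the 3 libraries of each group, against 704 reads in HR and 234 reads in NR kidneys. Every HR kidney was above every NR kidney, and every NR kidney was above every sham kidney. On the log2(FPKM + 1) scale Gstp3 rose in HR over NR kidneys by 1.19 ± 0.15 (adjusted p = 0.000158 by limma), in NR over NS kidneys by 1.31 ± 0.15 (adjusted p = 9e-06) and in HR over HS kidneys by 2.60 ± 0.15 (adjusted p = 2.86e-07). The HS and NS kidneys overlapped (log2 difference -0.09 ± 0.15, adjusted p = 0.834). The interaction was 1.29 ± 0.21 (adjusted p = 0.00222), a larger rise in preconditioned than in normoxic mice, which 19 of 20 alternatives kept and limma voom on recovered reads did not (2.00, adjusted p = 0.0937). Over the alternatives the difference of NR and NS kidneys ran from 1.17 to 3.52 and that of HR and HS kidneys from 2.47 to 5.53, all called. None of the 610 stretches of 100 bases in its protein-coding transcripts occurs in another gene of GENCODE M21. The gene model behind its FPKM is 1152 bases long, so a part of it was not checked. Gstp3 reads per 100 Gstp1 reads ran from 2.92 to 3.80 in HR, 0.80 to 1.24 in NR, 0.09 to 0.22 in HS and 0.06 to 0.37 in NS kidneys.

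**Figure D2:**
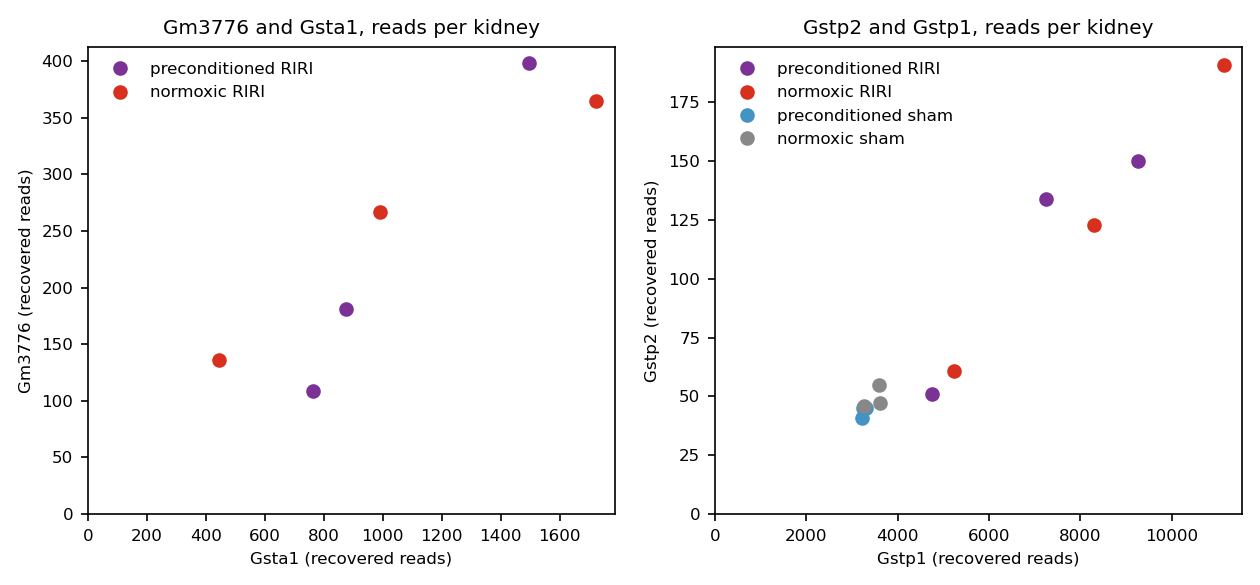
Recovered reads of Gm3776 against Gsta1 (left, HR and NR kidneys) and of Gstp2 against Gstp1 (right, HR, NR, HS and NS kidneys), 1 point per kidney. The kidneys with the most reads of the main gene are also among those with the most reads of its near-copy, at 14.3 to 30.5 Gm3776 reads per 100 Gsta1 reads and 1.07 to 1.85 Gstp2 reads per 100 Gstp1 reads.

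Gsta1 shares more of its sequence, with 81.8% of its 100-base stretches in another gene. These were 71.3% in the predicted gene Gm3776, 19.8% in Gsta2 and 13.3% in the predicted gene Gm10639, shares that overlap. Of the 100-base stretches of Gsta2, 24.8% occur in another gene, among them 17.3% in Gm10639 and 14.2% in Gsta1. Gm3776 was listed at 3.62, 12.9 and 6.005 FPKM in HR and 12.3, 4.65 and 8.94 FPKM in NR kidneys, and at no more than 0.0671 FPKM in any sham kidney, so it was high in the same libraries as Gsta1. The level of Gsta1 alone is uncertain for that reason, and a part of the reads of Gsta2 may also belong to another gene. When the rows of Gsta1 and Gsta2 were summed, the sum rose in NR over NS kidneys (log2 1.14 ± 0.24, adjusted p = 0.000898 by limma). In HS over NS kidneys the difference of that sum was 1.18 ± 0.24, just outside the threshold (adjusted p = 0.0581). The sum of Gstp1, Gstp2 and Gstp3, which is mostly Gstp1, rose in NR over NS (1.22 ± 0.25, adjusted p = 0.000815) and in HR over HS kidneys (1.06 ± 0.25, adjusted p = 0.00368) and did not pass between HR and NR kidneys (-0.22 ± 0.25, adjusted p = 0.508).

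The theta class gene Gstt1, on the reverse strand of chromosome 10 at 75783813-75798584, encodes an enzyme known for small halogenated hydrocarbons. It stood at 79.2, 96.5 and 86.8 FPKM in HR kidneys and at 46.3, 41.4 and 52.4 FPKM in NR kidneys. It stood at 124.5, 129.4 and 116.1 FPKM in HS kidneys and at 122.3, 115.4 and 119.8 FPKM in NS kidneys. The sham groups overlapped and were highest, the NR kidneys were lowest, and the HR kidneys lay between with no overlap to either. Gstt1 fell by 1.34 ± 0.10 on the log2 scale in NR against NS kidneys (adjusted p = 1.72e-07 by limma) and by 0.49 ± 0.10 in HR against HS kidneys (adjusted p = 0.00104). It rose in HR over NR kidneys by 0.90 ± 0.10 (adjusted p = 5.53e-05), and the interaction was 0.85 ± 0.13 (adjusted p = 0.00183), a smaller loss in preconditioned than in normoxic mice. HS and NS kidneys differed by 0.05 ± 0.10 (adjusted p = 0.87). Its 4 calls other than HS against NS held in every alternative tried.

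**Figure D3:**
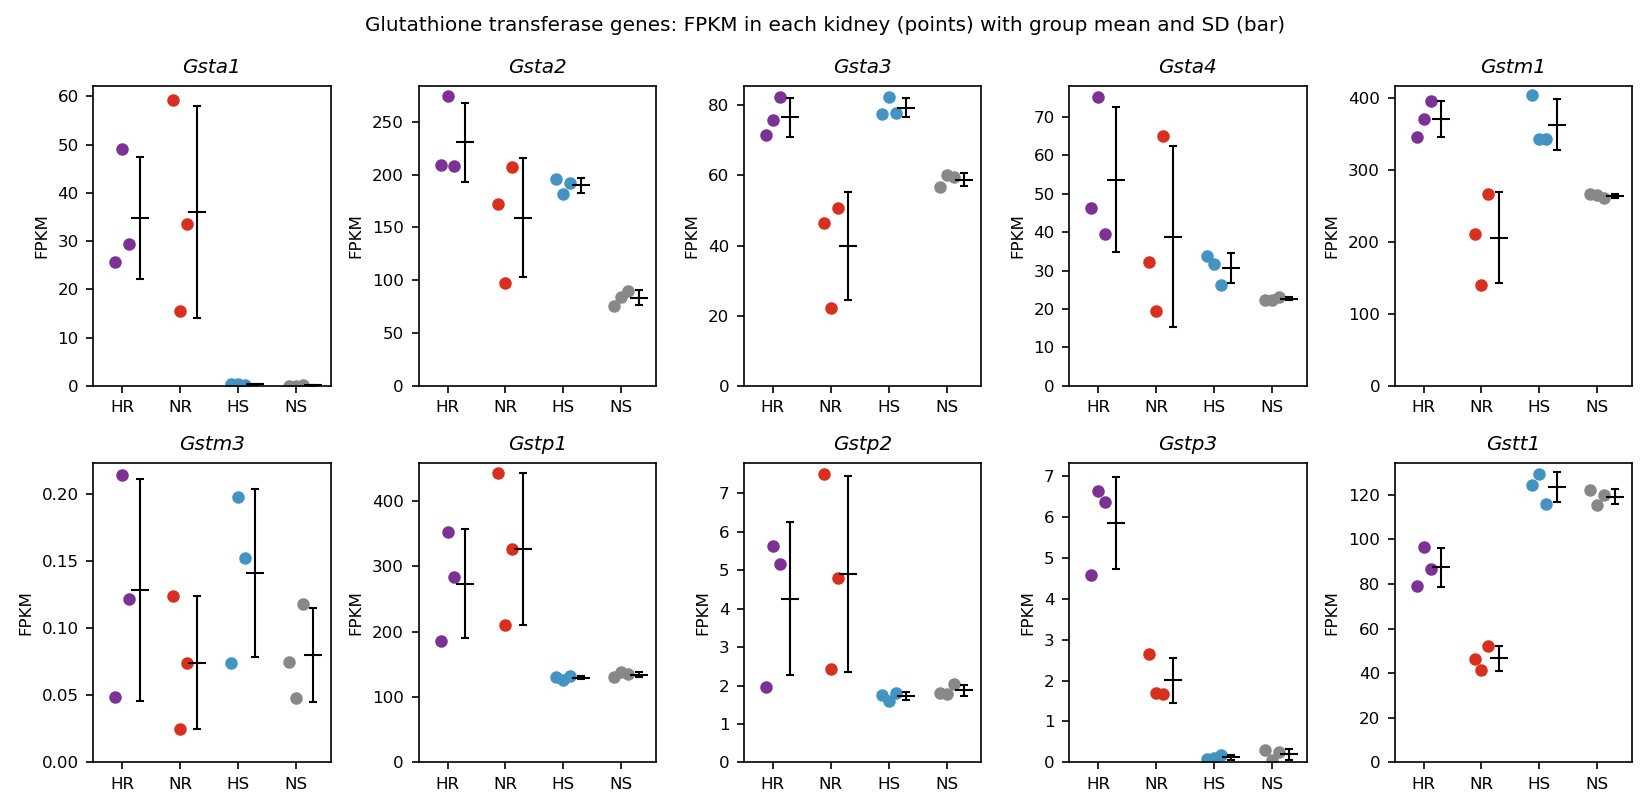
FPKM of the 10 glutathione transferase genes (vertical axis, 1 panel per gene, each with its own scale), 1 point per kidney in HR, NR, HS and NS groups of 3, with the group mean and SD. Gsta1, Gstp1 and Gstp3 are high in HR and NR kidneys, Gsta2 is higher in HS than in NS kidneys, and Gstt1 is lowest in NR kidneys.

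The comparisons were then read across the family. RIRI in normoxic mice was followed by more Gsta1, Gsta2, Gstp1, Gstp2 and Gstp3 and by less Gsta3 and Gstt1, while Gsta4 and Gstm1 were not called. That is 5 of the 9 tested genes higher and 2 lower in NR than in NS kidneys, where over all tested genes 41.6% were called higher and 30.1% lower. Gsta1 and Gstp3 are in this count and in the median that follows. They were tested only because they are high after RIRI, so both figures lean upward by selection. The median log2 difference of the 9 genes was 0.86, against 0.10 over all tested genes. With 71.7% of all genes called, a call in this comparison does not set the family apart. The 16 listed markers of the proximal tubule all fell in NR against NS kidneys, with a median log2 difference of -1.60, and their summed level was 19370 to 25560 FPKM in NR and 50880 to 56070 FPKM in NS kidneys. Kap alone made up most of that sum, at 16250 to 21680 FPKM in NR and 40580 to 45930 FPKM in NS kidneys. The neutrophil markers summed to 1690 to 3302 FPKM in NR and 4.03 to 18.3 FPKM in NS kidneys, and all 8 tested rose. The NR sum is nearly all Lcn2, which injured tubules also make, at 1557 to 3009 FPKM in NR and 1.77 to 3.20 FPKM in NS kidneys. Ly6g, which marks neutrophils, was too low to be tested, at 0.0938 to 0.639 FPKM in NR and 0 to 0.0299 FPKM in NS kidneys. The part of either in the results of the glutathione transferases was not tested.

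Among injured kidneys, preconditioning was followed by higher Gsta3, Gstm1, Gstp3 and Gstt1. Gsta2 was called higher too, a call lost with median-ratio and quantile scaling and kept by 7 of 22 alternatives. With Gsta2 that is 5 of 9 genes higher and 0 lower in HR than in NR kidneys, against 24.7% higher and 17.4% lower (42.1% in either direction) over all tested genes. The other 4 (Gsta1, Gsta4, Gstp1 and Gstp2) overlapped between the groups. Over all tested genes 47.7% did not overlap between HR and NR kidneys, so a lack of overlap does not set the family apart. The median log2 difference of the 9 genes was 0.59, against 0.06 over all tested genes. The 0 lower calls come with 0 genes at an unadjusted p under 0.05 in that direction, and with 0 in limma voom on recovered reads. Of the 16 proximal tubule markers 9 were higher in HR than in NR kidneys and none lower, with a median log2 difference of 0.54, and the 8 neutrophil markers were all lower, at 549.3 to 936.9 FPKM summed in HR kidneys against 1690 to 3302 FPKM in NR kidneys. Lcn2 alone was at 525.6 to 890.3 FPKM in HR and 1557 to 3009 FPKM in NR kidneys, while Cxcr2, a neutrophil chemokine receptor, was at 0.199 to 1.38 FPKM in HR and 1.98 to 2.85 FPKM in NR kidneys. Of the 8 neutrophil markers, Mmp8 and Mmp9 passed the filter only through the NR kidneys, so their lower calls lean on that selection. The part of the 2 lists in these results was not tested. Another scaling moved the balance of calls over all genes: 58.7% of the genes called between HR and NR kidneys were higher with FPKM as deposited, 44.6% with median-ratio and 48.2% with quantile scaling.

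Between sham kidneys, Gsta2 alone of these 9 tested genes was called higher in HS than in NS kidneys, in 9 of 22 alternatives as well, and none was lower (0 also at an unadjusted p under 0.05), where over all tested genes 0.186% (23 genes) were called higher and 0.235% (29 genes) lower. Gsta1, Gsta3, Gsta4 and Gstm1 did not overlap between the groups, with HS to NS ratios of mean FPKM of 2.82, 1.35, 1.35 and 1.37, but were not called. The ratio of Gsta1 rests on 27 reads in HS and 10 reads in NS kidneys. No overlap was common over all tested genes, at 29.4%. Gstp1, Gstp2, Gstp3 and Gstt1 overlapped, with log2 differences between -0.09 and 0.05. Of the proximal tubule markers 1 of 16 fell and none rose, with a median log2 difference of -0.003. Their summed level was 35390 to 40160 FPKM in HS and 50880 to 56070 FPKM in NS kidneys, most of it Kap alone, at 25480 to 30200 FPKM in HS and 40580 to 45930 FPKM in NS kidneys. The neutrophil markers summed to 5.62 to 9.61 FPKM in HS and 4.03 to 18.3 FPKM in NS kidneys. The 6 red blood cell markers summed to 1674 to 2058 FPKM in HS and 702.3 to 974.9 FPKM in NS kidneys, with a median log2 difference of 1.16. Each of the 6 was higher in every HS than in every NS kidney, and none was called. The part of these lists in the value of Gsta2 was not tested. Of all called genes 44.2% were higher, against 21.5% with median-ratio scaling, 23.3% with quantile scaling and 63.4% of a larger set of 303 genes where only HS and NS kidneys were fitted.

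In preconditioned mice RIRI was followed by more Gsta1, Gstp1, Gstp2 and Gstp3 and less Gstt1, so 4 of 9 genes were higher and 1 lower in HR than in HS kidneys, against 33.0% and 19.4% of all tested genes. Here too Gsta1 and Gstp3 were tested only because they are high after RIRI. Gsta3 and Gstm1 had differences near 0 (-0.05 and 0.03). All 16 proximal tubule markers fell, with a median log2 difference of -0.93 and a summed level of 17310 to 22770 FPKM in HR and 35390 to 40160 FPKM in HS kidneys, 7 of 8 neutrophil markers rose, and their part in these results was not tested. Of all genes called here, 63.0% were higher, against 52.3% with median-ratio and 51.1% with quantile scaling. The difference between the injury effects of preconditioned and normoxic mice was itself tested, and 2 of 9 genes passed, Gstp3 and Gstt1, both with a higher value in preconditioned mice, where 11.3% of all tested genes passed in that direction and 12.6% in the other. For Gsta3 and Gstm1, the interactions of 0.58 ± 0.32 (adjusted p = 0.201 by limma) and 0.44 ± 0.25 (adjusted p = 0.217) were not called, and that of Gstm1 was 0.19 and not called without the second NR kidney, and 0.65 and called without the third (adjusted p = 0.0388). HR minus NR and HR minus HS share the HR libraries, and NR minus NS and HR minus NR share the NR libraries, so these columns of values are not independent of each other.

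**Figure D4:**
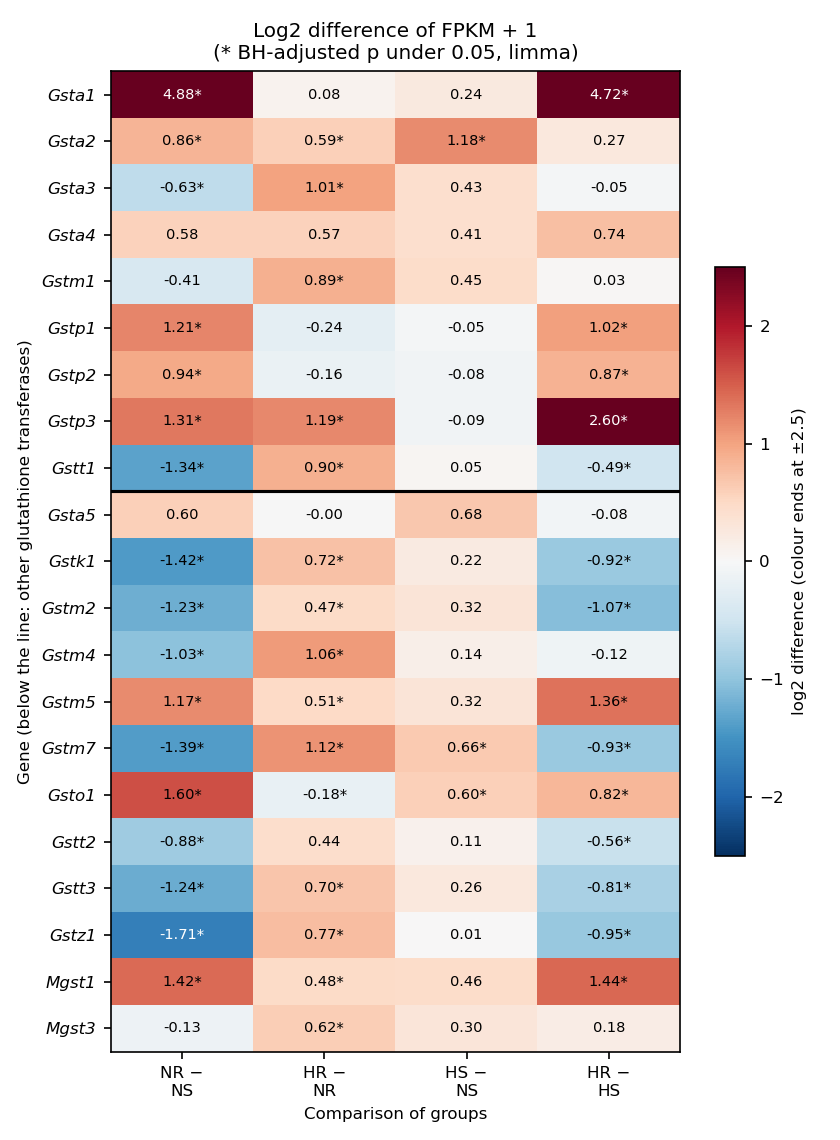
Log2 differences of FPKM + 1 (colour and printed value) for the 9 tested genes, above the line, and the 12 other tested glutathione transferases, below it, in the comparisons NR minus NS, HR minus NR, HS minus NS and HR minus HS, with a star at a BH-adjusted limma p under 0.05. Gsta1 has the highest values, 4.88 and 4.72, after RIRI, Gsta2 the highest after preconditioning alone, 1.18, and Gstt1 is below 0 in both RIRI comparisons.

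**Figure D5:**
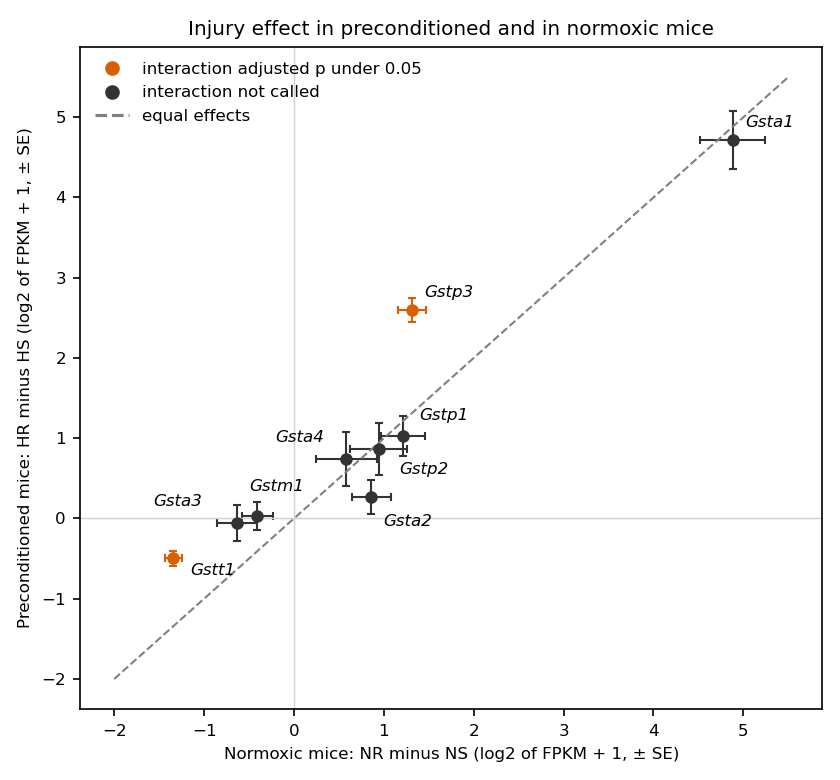
Log2 difference of HR and HS kidneys (vertical axis) against that of NR and NS kidneys (horizontal axis), in log2(FPKM + 1), 1 point per tested gene with bars of 1 SE, and a dashed line where both are equal. Gstp3 and Gstt1, coloured, lie above the line with a called interaction (1.29 and 0.85), and Gsta1 is at the upper right with 4.72 and 4.88.

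The other glutathione transferases moved both ways after RIRI. Of 17 such genes listed, 12 were tested, and in NR against NS kidneys 3 rose and 7 fell, with a median log2 difference of -0.96. Over all tested genes 41.6% rose and 30.1% fell there, with a median of 0.10. In HR against HS kidneys 3 of the 12 rose and 6 fell, with a median of -0.34, against 33.0% and 19.4% of all tested genes. Summed over the listed genes, the level was 868.1 to 1105 FPKM in HR, 641.1 to 782.4 in NR, 699.7 to 782.6 in HS and 610.1 to 641.1 FPKM in NS kidneys. Those that rose in NR over NS kidneys were Gsto1 of the omega class (1.60 ± 0.07, adjusted p = 4.33e-09 by limma), the membrane enzyme Mgst1 (1.42 ± 0.15, adjusted p = 4.16e-06) and Gstm5 (1.17 ± 0.18, adjusted p = 7.86e-05). Those that fell most clearly were Gstz1, a zeta class enzyme of tyrosine breakdown (-1.71 ± 0.10), the mitochondrial and peroxisomal Gstk1 (-1.42 ± 0.10), Gstm7 (-1.39 ± 0.12) and Gstt3 (-1.24 ± 0.15). In HR over NR kidneys 9 rose and 1, Gsto1, fell (by 0.18 ± 0.07, adjusted p = 0.0477), with a median of 0.56. Over all tested genes 24.7% rose and 17.4% fell there, with a median of 0.06. In HS over NS kidneys Gsto1 (0.60 ± 0.07, adjusted p = 0.0031) and Gstm7 (0.66 ± 0.12, adjusted p = 0.0474) rose and none fell. Over all tested genes 0.186% rose and 0.235% fell there. The interaction was called higher for 3 (Gstz1, Gstk1 and Gstm4) and lower for Gsto1 (-0.78 ± 0.10, adjusted p = 0.000634). Over all tested genes it was called higher for 11.3% and lower for 12.6%.

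The NRF2 list, made of the factor's regulators and other known targets, was read beside these genes. In NR against NS kidneys 19 of its 23 tested genes rose and 2 fell, with a median log2 difference of 1.20, led by Srxn1, which restores oxidised peroxiredoxins (4.33 ± 0.11, adjusted p = 3.1e-10 by limma), and Akr1b8, an aldo-keto reductase (5.13 ± 0.22, adjusted p = 4.68e-09). Over all tested genes 41.6% rose and 30.1% fell in that comparison. In HR against NR kidneys 1 of the list rose and 13 fell, with a median of -0.36, and Srxn1 fell by 2.01 ± 0.11 (adjusted p = 1.88e-06). Over all tested genes 24.7% rose and 17.4% fell there. None of the list was called between HS and NS kidneys, where 0.421% of all tested genes were. The 5 glutathione transferases called between HR and NR kidneys were all higher, and the difference between the 2 lists was not tested.

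Genes whose levels ran most alike over the 12 libraries were named by the root-mean-square (RMS) difference of log2(FPKM + 1) after centring each gene, leaving out predicted genes. For Gstt1 they were Ganc (0.08), Arsk (0.09) and Acacb (0.10), the closest matches of the family. For Gsta3 they were Smim6 (0.16), Akr1c19 (0.17) and Bcs1l (0.18), and for Gstm1 Smim6 (0.16), Stxbp6 (0.17) and Akr1c19 (0.17), so that Smim6 and Akr1c19 were near both. For Gstp1 they were Cyb5r1 (0.17), Lgals1 (0.19) and Mcub (0.20). Gsta1 was nearest to Timp1 (0.52), Spp1 (0.57) and Lgals3 (0.67), and Gstp3 to Slc34a2 (0.33), Dcdc2a (0.39) and Spns2 (0.42), which are looser matches. For Gsta2 they were Scin (0.32), Psmb10 (0.33) and Them6 (0.33), for Gsta4 Efemp1 (0.26), Scin (0.30) and Cpne7 (0.30), and for Gstp2 Cyb5r1 (0.21), Cpb2 (0.28) and Ftl1 (0.28).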

How the data were processed

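RNA-seq of 12 mouse kidneys was analysed, 3 per group. Per the submitters' processing notes, the sources name the mm10 build, HTSeq and DESeq2. No source used here gives the aligner, annotation, read length or strand setting. The authors deposited 1 table of FPKM for 25553 gene symbols, with no counts beside them. Low FPKM are whole multiples of what 1 read is worth, so relative depth and whole reads were recovered for all 25553 genes at a tolerance of 0.001 reads, with totals of 33107285 to 35713008. Recovered reads give the depth and 1 alternative. In 66 pairs of libraries 0 had equal values, and correlations of log2 values within groups, across genes, were 0.984 to 0.995. The series text states separate mice in each group and says nothing more on replicates.

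From the deposited FPKM, log2(FPKM + 1) was computed and fitted with limma 3.58.1 in R 4.3.3, with a mean-variance trend and 4 group means in 1 fit. The 12357 genes that reached FPKM 1 in 3 or more libraries were kept, and p-values were BH-adjusted over all of them. SE are those of the fit and SD are over 3 mice. The script was tested on simulated data. Of the 25553 symbols, 24328 matched RefSeq of GRCm38.p6, which gave positions and upstream windows, with a window for 9 of the 10 genes. Shared stretches were read from GENCODE M21 transcripts with Python 3.11.15, taking those of each glutathione transferase gene from its protein-coding transcripts only. All 10 genes are named whatever their values. Of other lists at most 4 called genes per direction with the smallest adjusted p are named, and 3 genes per member for likeness. Members and lists were chosen with earlier results of these data known. Alternatives were median-ratio, TPM and quantile scaling, a pseudocount of 0.1, no filter on low values or one at FPKM 5, fitting only the groups compared, no trend, the replicate number as a block, leaving out each library, limma voom on recovered reads, and summing near-copies.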

Additional observations from a re-analysis of the deposited data

Results flagged for a closer look

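For 2 genes the injury effect differed between preconditioned and normoxic mice by the test of the difference itself. The interaction of Gstp3 was 1.29 ± 0.21 on the log2(FPKM + 1) scale (SE, BH-adjusted p = 0.00222 by limma). Gstp3 was higher in 3 of 3 HR kidneys than in any NR kidney and its HS and NS kidneys overlapped. The interaction of Gstt1 was 0.85 ± 0.13 (adjusted p = 0.00183), with 3 of 3 HR kidneys between the NR and the sham kidneys. With 23.9% of all tested genes called for an interaction, 2 of 9 is near the share of the whole table. Groups of 3 are too small for a check of single kidneys against their group.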

How the results depend on the processing

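Of 996 alternative values of single genes 919 kept their direction and side of the threshold, 44 were no longer called, 13 became called and 20 changed sign, none of these 20 at a called value. With near-copies summed, fewer rows remain to be counted, and the called genes numbered 2 higher in NR than NS, 3 in HR than NR, 0 in HS than NS and 1 in HR than HS kidneys, with 1 interaction. The lower calls of NR against NS kidneys were 1 without a filter and 1 where only these groups were fitted. The single HS over NS call (Gsta2) was lost (0) at a pseudocount of 0.1, without a filter and with quantile scaling, and there were 3 calls where only these groups were fitted. The higher interactions were 1 at a filter of FPKM 5, where Gstp3 is not tested, and 1 with voom. The cause of the other changes was not tested. Leaving out 1 library gave, in NR against NS kidneys, 4 to 6 higher and 1 to 3 lower genes (1 without the second or the third NS kidney), in HR over NR 4 to 6, in HS over NS 0 to 2 (2 without the second NR kidney), in HR over HS 3 to 5, and 2 to 3 higher and 0 to 1 lower interactions (1 without the second NR kidney, Gsta2).

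With median-ratio scaling 3 uncalled values changed sign: Gsta1 in HR minus NR (-0.011), Gstt1 in HS minus NS (-0.041) and Gstm1 in HR minus HS (-0.063). Leaving out 1 library turned uncalled values, which then ran from -0.41 to 0.53 for Gsta1, -0.52 to 0.015 for Gstp1 and -0.50 to 0.21 for Gstp2 in HR minus NR, and from -0.016 to 0.11 for Gstm1 in HR minus HS. For the interaction they ran from -0.65 to 0.28 for Gsta1, -0.24 to 0.61 for Gsta4, -0.47 to 0.068 for Gstp1 and -0.42 to 0.29 for Gstp2.

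Same-numbered kidneys did not deviate together (correlations -0.25 to 0.17 in 18 pairs, against -0.16 to 0.34 in 36 pairs of different number). No pairing by number was seen, and with 3 kidneys per group a weak one could be missed. With the replicate block, HS over NS calls were 0, and Gsta2 in HR minus NR (adjusted p = 0.0608) and HS minus NS (0.0843) and Gstp2 in HR minus HS (0.0559) lost their call. The depth limits Gstm3, at 1 to 9 reads per library, and the sham levels of Gsta1 and Gstp3.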

Other observations

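Genes that make, recycle and break down glutathione moved both ways after RIRI. Of 23 tested, 8 rose and 12 fell in NR against NS kidneys, among them Chac1, which degrades glutathione (log2 4.26 ± 0.29, BH-adjusted p = 1.29e-07 by limma), and Gsr, which reduces oxidised glutathione (1.01 ± 0.07, adjusted p = 1.93e-07), on the higher side. Cbs, which supplies cysteine by transsulfuration (-2.42 ± 0.10), Dpep1, a dipeptidase (-1.34 ± 0.10), and Ggt1, the brush border enzyme that starts the breakdown of glutathione conjugates (-0.90 ± 0.06), were on the lower side. Over all tested genes 41.6% rose and 30.1% fell in that comparison. In HR against NR kidneys 10 of the list rose and 6 fell, against 24.7% and 17.4% of all tested genes. Cbs was higher by 0.59 ± 0.10 (adjusted p = 0.000931) and Slc7a11, the cystine transporter, lower (-1.08 ± 0.19, adjusted p = 0.00106). Slc7a11 passed the filter only through the NR kidneys, at 1.01 to 2.89 FPKM, against 0.192 to 0.335 FPKM in HR kidneys. Its lower call leans on that selection. Chac1 passed the filter only through the RIRI kidneys. None of the list was called between HS and NS kidneys, where 0.421% of all tested genes were.

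Genes that export glutathione conjugates and turn them into mercapturic acids split by role. Of 13 tested, 6 rose and 7 fell in NR against NS kidneys, where 41.6% of all tested genes rose and 30.1% fell. The efflux pumps Abcc3 (1.06 ± 0.10, adjusted p = 2.13e-06 by limma), Abcc5 (0.77 ± 0.09) and Abcc1 (0.94 ± 0.12) rose. Abcc3 passed the filter only through the RIRI kidneys, where it is high. The aminoacylases Acy1 (-1.63 ± 0.08) and Acy3 (-3.09 ± 0.16, adjusted p = 1.62e-08), the lyase Kyat3 (-1.73 ± 0.12) and the organic anion uptake carrier Slc22a6 (-1.57 ± 0.12) fell. In HR over NR kidneys 5 rose, among them Kyat3 (1.19 ± 0.12), Acy3 (0.90 ± 0.16) and Slc22a6 (0.85 ± 0.12), and Abcc5 fell (by 0.35 ± 0.09). Over all tested genes 24.7% rose and 17.4% fell there. Slc22a6 is also one of the 16 proximal tubule markers, all of which fell in NR against NS kidneys, and the part of that in these values was not tested.

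Among transcription factors known to act on these genes, Hnf4a, a regulator of proximal tubule genes, fell by 2.15 ± 0.15 in NR against NS kidneys (adjusted p = 1.75e-07 by limma) and rose by 1.57 ± 0.15 in HR over NR kidneys (adjusted p = 3.14e-05). Cebpb, a stress-responsive factor, rose by 2.67 ± 0.18 and fell by 1.12 ± 0.18 in the same comparisons. Of the 10 tested factors of this list 3 rose and 5 fell in NR against NS kidneys, where 41.6% of all tested genes rose and 30.1% fell. Hnf4a is also one of the 16 proximal tubule markers, all of which fell in that comparison. The part of these factors in the values of the glutathione transferases was not tested.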
